A study of Mus musculus with 12 samples.

Results

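The genes described here are 10 mouse genes of antigen presentation, B2m, H2-K1, H2-D1, H2-T23, H2-Aa, H2-Ab1, Cd74, Tap1, Psmb8 and Psmb9. They were chosen by name, and all 19 array probes that the platform annotation gives to 1 of them were read, out of 46632 probes on the array. Of the 10 genes, 7 had a probe that passed the filter on dim probes (detected on at least 3 of 12 arrays), against 9526 of the 17711 genes named on the array. Their RNA was compared on Illumina mouse bead arrays between 4 kinds of C57Bl/6 cell, with 3 independent biological replicates of each. Neurospheres (NSP) are floating clusters of dividing cells that were cultured from adult spinal cord ependymal cells and were not sorted. Spinal cord (SC) and lateral ventricular wall (LVW) ependymal cells, the ciliated lining of the central canal and the brain ventricles, came straight from adult tissue by sorting for CD133 and CD24 with CD45 and CD34 gated out. Radial glia (RG), the embryo's neural stem cells, were sorted from forebrain at embryonic day 14.5 for CD133 without CD24, CD45 or CD34. The exact age of the adult mice and the number of animals behind a sample are not given in the sources used here. In all 3 sorted groups the gate excluded cells with surface CD45, the general marker of blood-derived cells, whereas the neurospheres had no gate.

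Cells show fragments of their own proteins on class I molecules, each made of a heavy chain (H2-K1, H2-D1 or the non-classical H2-T23) and the shared light chain beta-2-microglobulin (B2m). The peptides are cut by the proteasome, in which interferon can exchange standard subunits for Psmb8 and Psmb9, and are pumped into the endoplasmic reticulum by a transporter of which Tap1 is a subunit. Class II molecules, made of an alpha chain (H2-Aa) and a beta chain (H2-Ab1) and escorted by the invariant chain Cd74, present material taken up from outside and are typical of dendritic cells, B cells and activated macrophages. Neural cells are known for low levels of both classes outside inflammation.

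Apart from B2m and Cd74, the genes lie in the major histocompatibility complex on chromosome 17 (positions in GRCm38.p6, from RefSeq). H2-K1 spans chr17:33996012-34000619, Psmb9 chr17:34182030-34187330, Tap1 chr17:34187556-34197225, Psmb8 chr17:34198195-34201454, H2-Ab1 chr17:34263227-34269418, H2-Aa chr17:34282744-34287823, H2-D1 chr17:35263094-35267497 and H2-T23 chr17:36029977-36032701. B2m lies apart at chr2:122147687-122153082, and no position is given here for Cd74. The start sites of Psmb9 and Tap1, which are read in opposite directions, are 226 bases apart. RefSeq promoter windows, 250 bases before to 50 bases after a start site, were matched for 8 of the 10 genes. That of H2-K1 lies wholly inside the gene span given above, so its start site is not the outer end of that span. Motif positions in the H2-K1 window depend on that start site. The windows of the 3 class I heavy chains and of B2m are shown because these partners of 1 molecule differed in direction between the groups. Capitals mark matches to the interferon regulatory factor core AANNGAAA, searched on both strands, a form settled after the windows had been seen. The windows are chr17:34000298-34000597 (minus strand) for H2-K1, chr17:35262844-35263143 (plus strand) for H2-D1, chr17:36032652-36032951 (minus strand) for H2-T23 and chr2:122147437-122147736 (plus strand) for B2m, each printed 5′ to 3′.
H2-K1: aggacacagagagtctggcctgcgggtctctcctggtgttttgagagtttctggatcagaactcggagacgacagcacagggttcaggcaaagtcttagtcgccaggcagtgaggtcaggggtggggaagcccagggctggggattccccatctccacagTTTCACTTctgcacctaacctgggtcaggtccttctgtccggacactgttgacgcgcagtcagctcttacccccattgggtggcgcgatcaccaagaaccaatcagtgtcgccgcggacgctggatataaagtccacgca
H2-D1: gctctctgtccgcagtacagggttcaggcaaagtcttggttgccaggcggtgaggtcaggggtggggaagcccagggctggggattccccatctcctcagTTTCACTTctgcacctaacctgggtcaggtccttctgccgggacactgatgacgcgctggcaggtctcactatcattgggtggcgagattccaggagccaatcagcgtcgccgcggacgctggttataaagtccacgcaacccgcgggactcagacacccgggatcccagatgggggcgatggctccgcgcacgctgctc
H2-T23: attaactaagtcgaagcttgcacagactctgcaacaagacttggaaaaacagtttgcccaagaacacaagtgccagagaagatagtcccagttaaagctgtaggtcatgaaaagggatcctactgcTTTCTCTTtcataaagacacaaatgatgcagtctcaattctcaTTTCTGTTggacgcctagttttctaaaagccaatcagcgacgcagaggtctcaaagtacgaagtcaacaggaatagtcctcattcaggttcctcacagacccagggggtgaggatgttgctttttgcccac
B2m: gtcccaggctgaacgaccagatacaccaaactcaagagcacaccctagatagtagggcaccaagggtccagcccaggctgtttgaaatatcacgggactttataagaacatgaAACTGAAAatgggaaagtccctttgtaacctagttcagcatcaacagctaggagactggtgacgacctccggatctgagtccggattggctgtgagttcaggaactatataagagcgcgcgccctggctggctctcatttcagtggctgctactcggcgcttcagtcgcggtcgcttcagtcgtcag

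The core was in 5 of the 8 windows matched, those shown and that of H2-Aa, and in 23.9% of 32851 RefSeq mouse promoter windows of the same length. Counted from 1 at the 5′ end of the window, it lay at bases 161 to 168 of H2-K1 and 101 to 108 of H2-D1. It lay at bases 127 to 134 and 170 to 177 of H2-T23 and at bases 114 to 121 of B2m. It was in the reverse orientation in the 3 heavy chain windows and in the forward one in B2m. The windows of H2-K1 and H2-D1 shared an identical run of 47 bases. The longest run that H2-T23 shared with H2-D1 was 12 bases. The interferon gamma motif TTCNNNGAA, present in 8.3% of all windows, was found in 1 of the 8 members, Psmb8. The CCAAT box core ATTGG was in 7 of the 8 and in 37.4% of all windows. The Psmb9 and Tap1 windows overlap, and their matches are the same 5 bases read from opposite strands, so the 7 are not separate sites. Such matches describe letters only.

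The arrays and labels were checked first. The 3 NSP arrays detected between 11434 and 16175 probes, the SC arrays 10742 to 12298, the LVW arrays 11660 to 12132 and the RG arrays 12273 to 13487. The highest figure belonged to NSP replicate 3, whose mean raw signal of 654 was also above that of every other array (170 to 405), so NSP results are also given without it where it matters. Of 11 ependymal markers, 5 to 9 were detected on an NSP array, 10 on each SC array, 9 or 10 on an LVW array and 8 on each RG array. Their summed signal (normalised signal less the offset of 16) lay between 16413 and 21462 in NSP, between 98126 and 103394 in SC, between 93134 and 95973 in LVW and between 17471 and 21904 in RG. The RG arrays detected all 8 markers of pericytes and 6 or 7 of 11 endothelial markers, against 2 or 3 and 2 to 6 in the other groups. The pericyte sum was 4162 to 19290 in NSP, 7787 to 9227 in SC, 17487 to 22568 in LVW and 14490 to 23378 in RG. NSP and LVW thus overlapped RG. The endothelial sum was 349 to 504 in NSP, 302 to 744 in SC, 290 to 1553 in LVW and 6775 to 12958 in RG. The pericyte list marker Acta2 was higher in LVW than in RG (2.16 ± 0.48, adjusted p = 0.00429), and the other 7 were lower. Of 6 radial glia markers, 5 or 6 were detected on an NSP array, 2 or 3 on an SC array, 3 or 4 on an LVW array and 4 or 5 on an RG array. Their summed signal was 14993 to 17334 in NSP, 7481 to 10915 in SC, 8147 to 14469 in LVW and 5696 to 7840 in RG, where it overlapped SC only. Hes5, Nes, Pax6 and Slc1a3 were detected on all 3 RG arrays, Sox2 on 1 and Fabp7 on 0, so this list bears out the RG label only in part. Of 7 oligodendrocyte markers, 1 or 2 were detected on an NSP array, 3 to 6 on an SC array, 4 or 5 on an LVW array and 2 to 4 on an RG array. Their sum was 283 to 489 in NSP, 1513 to 21939 in SC, 4900 to 12422 in LVW and 408 to 573 in RG, so it ran with the ependymal groups. The myelin gene Mobp was detected on 0 NSP, 3 SC, 3 LVW and 0 RG arrays, and its LVW level was at least 31.4-fold that of RG (adjusted p = 3.08e-05). Of the 6 tested genes of this list, 3 were called higher in LVW than in RG and 0 lower. Of all genes, 16.7% were called higher and 19.7% lower. Mag (-1.13 ± 1.28) and Cldn11 (-2.47 ± 1.71) ran the other way in LVW against RG and were not called. Mobp, Mag, Cldn11, Acta2 and the single radial glia genes above were named after their values were seen. The part of vessel cells and oligodendrocytes in the levels below was not tested. In such bulk samples, fewer cells of a type and less RNA per cell cannot be told apart.

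Detection alone already separated the members. Of the 19 probes, 8 passed the filter and 7 were detected on none of the 12 arrays (detection p-value under 0.01 counts as detected). H2-D1, H2-T23 and B2m were detected on all 12 arrays, and H2-T23 by both of its probes. The class II members split. H2-Ab1 was detected by 1 of its 2 probes, on all 6 ependymal arrays, on NSP replicate 3 and on no RG array. Its partner H2-Aa was detected on 1 array, SC replicate 3, with a raw signal of 38.9. Both probes of Cd74 were detected on 0 of 12 arrays, with raw signals between -16.6 and -2.07, that is, below background. Tap1 was detected on NSP replicate 3 alone (raw signal 52.0), and H2-K1 on all ependymal arrays, 2 NSP arrays and no RG array. H2-Aa, Cd74 and Tap1 therefore enter no test, and for them the arrays show no level rather than an absence.

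**Figure D1:**
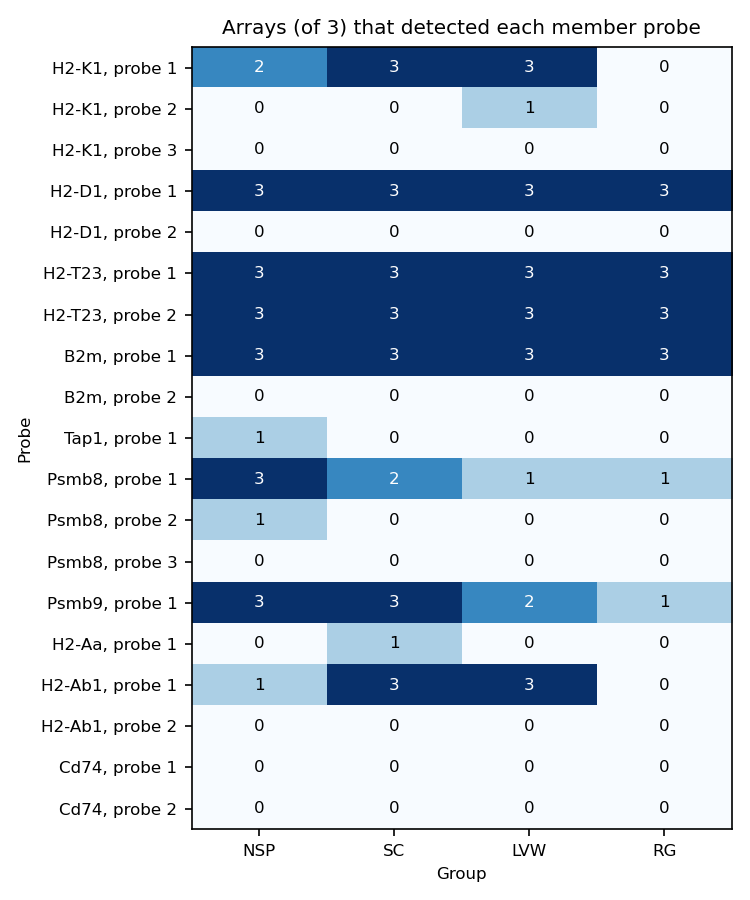
Number of arrays, of 3 per group, on which each of the 19 member probes was detected (detection p-value under 0.01), with probes in rows and groups in columns. H2-Ab1 and H2-K1 have a probe seen on all 3 SC and all 3 LVW arrays and on no RG array, and the 2 Cd74 probes are 0 throughout.

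The class I heavy chain H2-K1, a classical molecule that shows peptides to killer T cells, had its highest group means in the ependymal cells. Its log2 normalised signal was 5.36, 6.18 and 7.12 on NSP replicates 1, 2 and 3, with replicate 1 below detection. It was 7.42, 6.95 and 7.07 in SC, 9.19, 7.92 and 7.38 in LVW, and 4.82, 5.16 and 5.12 in RG. Every ependymal array lay above every RG array, and NSP lay between, overlapping SC. Because RG detected H2-K1 on no array, folds against it are lower bounds, which set the higher group's mean against the weakest detected signal of each RG array or the probe's own if higher. H2-K1 was at least 5.94-fold higher in LVW than in RG (adjusted p = 0.00051) and at least 2.93-fold higher in SC (adjusted p = 0.00739). These bounds hold for the main processing only. Over the alternatives the log2 change ran from 1.556 to 4.61 in LVW over RG and from 0.8649 to 3.515 in SC over RG. With the authors' deposited values the SC difference missed the threshold (adjusted p = 0.0559). Between NSP and LVW it fell by 1.95 ± 0.51 (log2 change ± SE; adjusted p = 0.0115). That call was lost in a fit to the 6 arrays compared (0.0787) and without NSP replicate 1 (0.0529). H2-K1 was read by 1 of 3 probes. Of the others, 1 was detected on no array and 1 on LVW replicate 1 alone.

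H2-D1, the other classical heavy chain that was read, also had its highest group means in the ependymal cells. The log2 levels were 9.50, 9.38 and 9.75 in NSP, 10.06, 10.68 and 10.74 in SC, 10.85, 10.60 and 10.86 in LVW and 9.44, 9.45 and 9.07 in RG. All 6 ependymal values lay above all 6 values of the dividing groups, and NSP overlapped RG. H2-D1 was higher than in RG by 1.45 ± 0.28 in LVW (adjusted p = 0.00192) and by 1.18 ± 0.28 in SC (adjusted p = 0.00771). In NSP it fell by 1.23 ± 0.28 against LVW (adjusted p = 0.00617). Against SC it fell by 0.96 ± 0.28 (adjusted p = 0.0248), which is 1.94-fold. All 4 of these calls were lost when arrays were scaled to equal medians instead of equal distributions (adjusted p = 0.146, 0.548, 0.137 and 0.523). The call against SC was also lost in a fit to those 6 arrays (0.0514) and without SC replicate 2 or 3 or NSP replicate 1 or 2 (0.0706 to 0.0923). H2-D1 was read by 1 probe, since the other was detected on no array.

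H2-T23 encodes Qa-1, a non-classical heavy chain recognised by receptors of natural killer cells, and it had another pattern. Its log2 levels were 9.71, 8.95 and 9.24 in NSP, 8.91, 8.77 and 8.68 in SC, 9.68, 8.21 and 8.71 in LVW, and 6.36, 6.70 and 6.43 in RG. NSP lay just above SC and overlapped LVW, and the 3 RG arrays stood below the other 9. Against RG, H2-T23 was higher by 2.81 ± 0.37 in NSP (adjusted p = 0.000281), by 2.29 ± 0.37 in SC (adjusted p = 0.000632) and by 2.37 ± 0.37 in LVW (adjusted p = 0.000436). All 3 calls held under every alternative tried. The second H2-T23 probe gave the same directions with smaller changes when tested on its own over 12211 probes. They were 1.62 ± 0.32, 1.34 ± 0.32 and 1.29 ± 0.32 (adjusted p = 0.00389, 0.00732 and 0.00813). Class I genes are close copies of each other, and whether the H2-K1, H2-D1 and H2-T23 probes also bind each other's RNA was not tested.

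B2m, the light chain that all these heavy chains need, ran the other way in the ependymal cells. The raw signal was 2034, 2264 and 2713 on the NSP arrays, 195, 200 and 115 on the SC arrays, 210, 109 and 546 on the LVW arrays and 1141, 1006 and 861 on the RG arrays. On the normalised log2 scale this was 11.68, 11.45 and 10.44 in NSP, 8.57, 8.40 and 7.86 in SC, 7.63, 6.73 and 8.78 in LVW, and 9.92, 9.81 and 9.57 in RG. NSP, RG and the ependymal arrays formed 3 ranges that did not overlap, while SC and LVW overlapped. Compared with SC, the source of the culture, B2m was higher in NSP by 2.91 ± 0.50, or 7.53-fold (adjusted p = 0.00103). Compared with LVW it was higher in NSP by 3.47 ± 0.50 (adjusted p = 0.000245). In LVW against RG it fell by 2.05 ± 0.50 (adjusted p = 0.00713), a call that held under every alternative. In SC against RG it fell by 1.49 ± 0.50 (adjusted p = 0.0395), a call lost without any 1 of the SC or RG arrays (adjusted p between 0.0586 and 0.128) and with the replicate number as a block (0.0618). Between NSP and RG the change was 1.42 ± 0.50 (adjusted p = 0.0658), and it was called without NSP replicate 3 (1.80, adjusted p = 0.0234). B2m was read by 1 probe, since the other was detected on no array.

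**Figure D2:**
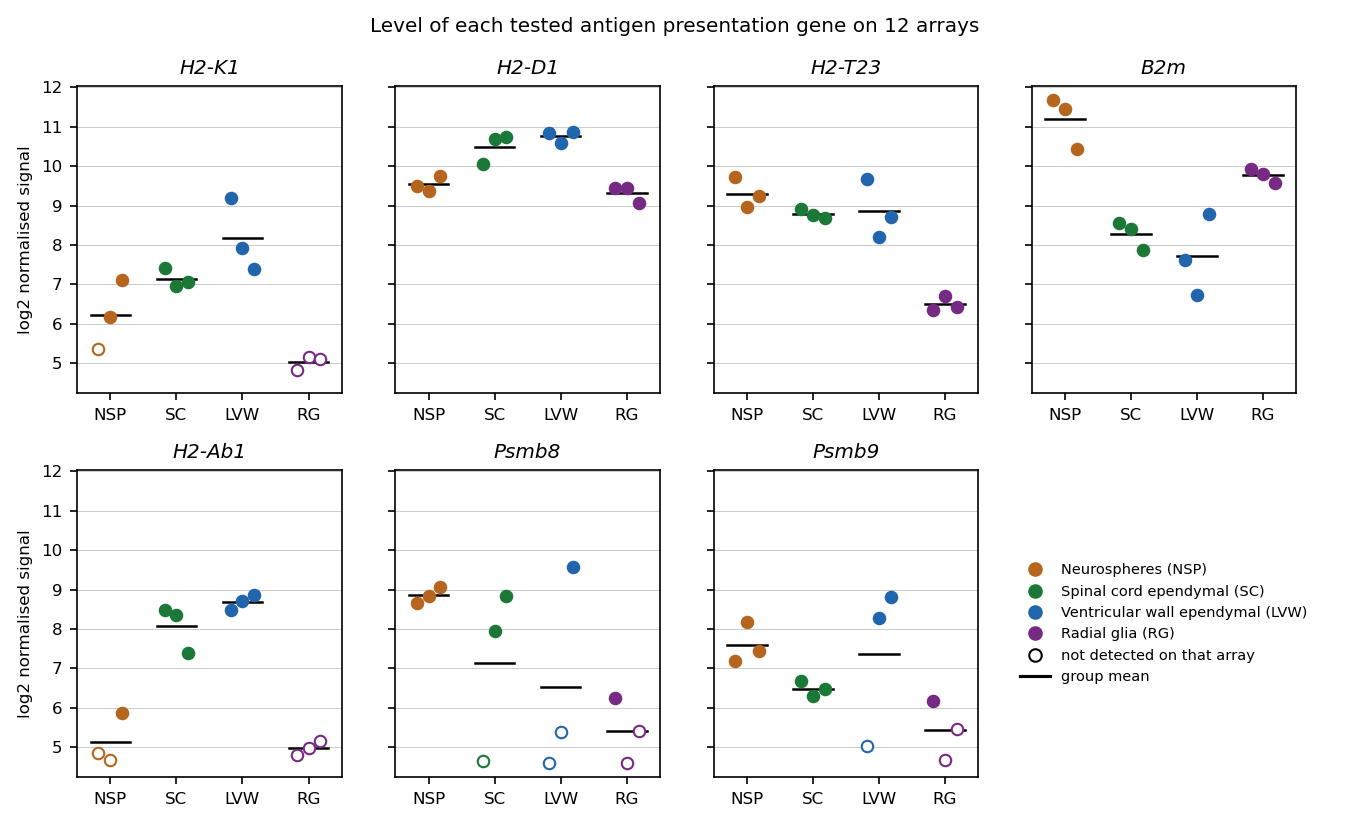
Log2 normalised signal of the 7 tested members, 1 panel per gene, with groups on the horizontal axis, 1 point per array, open points for arrays below detection and a bar at each group mean. H2-D1 and H2-Ab1 are higher on every SC and LVW array than on any other, H2-K1 in NSP overlaps SC, and B2m is lowest in SC and LVW, with group means of 8.28 and 7.71 against 11.19 in NSP and 9.76 in RG.

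H2-Ab1, the class II beta chain, separated the ependymal cells from the dividing groups. Its raw signal was 5.0, -0.76 and 84.5 on the NSP arrays, 183, 193 and 81.4 on the SC arrays, 407, 460 and 580 on the LVW arrays, and 6.7, 13.5 and 21.3 on the RG arrays. The log2 levels were 4.85, 4.68 and 5.88 in NSP, 8.49, 8.34 and 7.39 in SC, 8.48, 8.72 and 8.87 in LVW and 4.80, 4.99 and 5.16 in RG. All 6 ependymal arrays lay above the other 6. In NSP, which detected the gene on 1 array, H2-Ab1 fell by 2.94 ± 0.39 against SC (adjusted p = 0.000156) and fell by 3.55 ± 0.39 against LVW (adjusted p = 3.02e-05). Against RG, where no array detected it, H2-Ab1 was at least 5.59-fold higher in SC (adjusted p = 9.05e-05) and at least 8.56-fold higher in LVW (adjusted p = 2.01e-05). These 4 calls held under every alternative tried, but the size did not, with 2 of 3 NSP arrays and all RG arrays below detection. The change ran from -5.29 to -1.45 in NSP over SC and from -5.94 to -1.89 in NSP over LVW. It ran from 1.486 to 4.733 in SC over RG and from 1.934 to 5.384 in LVW over RG, so the 2 bounds hold for the main processing only. H2-Ab1 was read by 1 probe. The other was detected on no array, ependymal ones included, with raw signals between -6.45 and 4.35.

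Of the inducible proteasome subunits, Psmb8 varied widely between replicates in both ependymal groups and Psmb9 in LVW. Psmb8, which replaces a catalytic subunit of the standard proteasome, had log2 levels of 8.66, 8.83 and 9.07 in NSP, 4.64, 7.95 and 8.84 in SC, 4.59, 5.40 and 9.58 in LVW and 6.26, 4.59 and 5.40 in RG. The NSP arrays lay closest together, with an SD of 0.20, against 2.21 in SC, 2.68 in LVW and 0.84 in RG. These values come from 1 of 3 Psmb8 probes. Of the others, 1 was detected on no array and 1 on NSP replicate 3 alone, so neither showed the spread between ependymal arrays. Psmb9, the subunit encoded next to Tap1, had 7.19, 8.18 and 7.43 in NSP, 6.68, 6.29 and 6.47 in SC, 5.02, 8.29 and 8.81 in LVW and 6.16, 4.67 and 5.46 in RG. For both genes every NSP array lay above every RG array. The differences were 3.44 ± 1.25 for Psmb8 (adjusted p = 0.0757) and 2.17 ± 0.80 for Psmb9 (adjusted p = 0.0815), with 1 of 3 RG arrays above detection for each gene, and neither was called. Both were called in a fit to the 6 arrays of these groups (adjusted p = 0.00309 and 0.0192). LVW replicate 1 was below detection for both genes. Without it, Psmb9 was higher in LVW than in RG by 3.12 (adjusted p = 0.000446) and in SC against LVW it fell by 2.07 (adjusted p = 0.0237). Without LVW replicate 3, the only LVW array that detected Psmb8, this gene was called higher in NSP than in LVW (adjusted p = 0.0124), with both remaining LVW arrays below detection.

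Put together by comparison, the members divided as follows. Between SC and LVW ependymal cells 0 of 7 tested members were called with limma (0 at an unadjusted p under 0.05), while 8.04% of all tested genes were (3.09% higher and 4.95% lower). The 95% intervals of the log2 difference were -1.47 to 0.23 for H2-Ab1, -0.89 to 0.35 for H2-D1, -0.90 to 0.74 for H2-T23 and -0.53 to 1.65 for B2m. That for H2-K1 was -2.13 to 0.09. A difference of 2-fold or more is therefore still possible for H2-K1, H2-Ab1 and B2m, and the Psmb8 and Psmb9 intervals were wider still.

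In LVW against RG, 4 of 7 were higher (H2-K1, H2-D1, H2-T23 and H2-Ab1) and 1, B2m, was lower, beside 36.5% of all genes called (16.7% higher and 19.7% lower). In SC against RG these 4 were also higher and B2m was lower, beside 31.8% of all genes (14.8% higher and 17% lower). These comparisons share the RG arrays, so their likeness is not independent. H2-K1 and H2-Ab1 passed the filter through the groups in which they were high, so the counts describe the members and do not weigh for them. In NSP against SC, 1 of 7 was higher, B2m, and 2 were lower, H2-D1 and H2-Ab1, beside 30.2% of all genes (15.5% higher and 14.7% lower). In NSP against LVW, B2m was higher and H2-K1, H2-D1 and H2-Ab1 were lower, beside 33.7% of all genes (17.3% higher and 16.4% lower). In NSP against RG 1 member, H2-T23, was called higher, beside 20.3% of all genes (9.23% higher and 11.1% lower). With NSP replicate 3 left out, and in the normexp and authors' settings, 2 were called, and 4 in a fit to the 6 arrays compared.

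**Figure D3:**
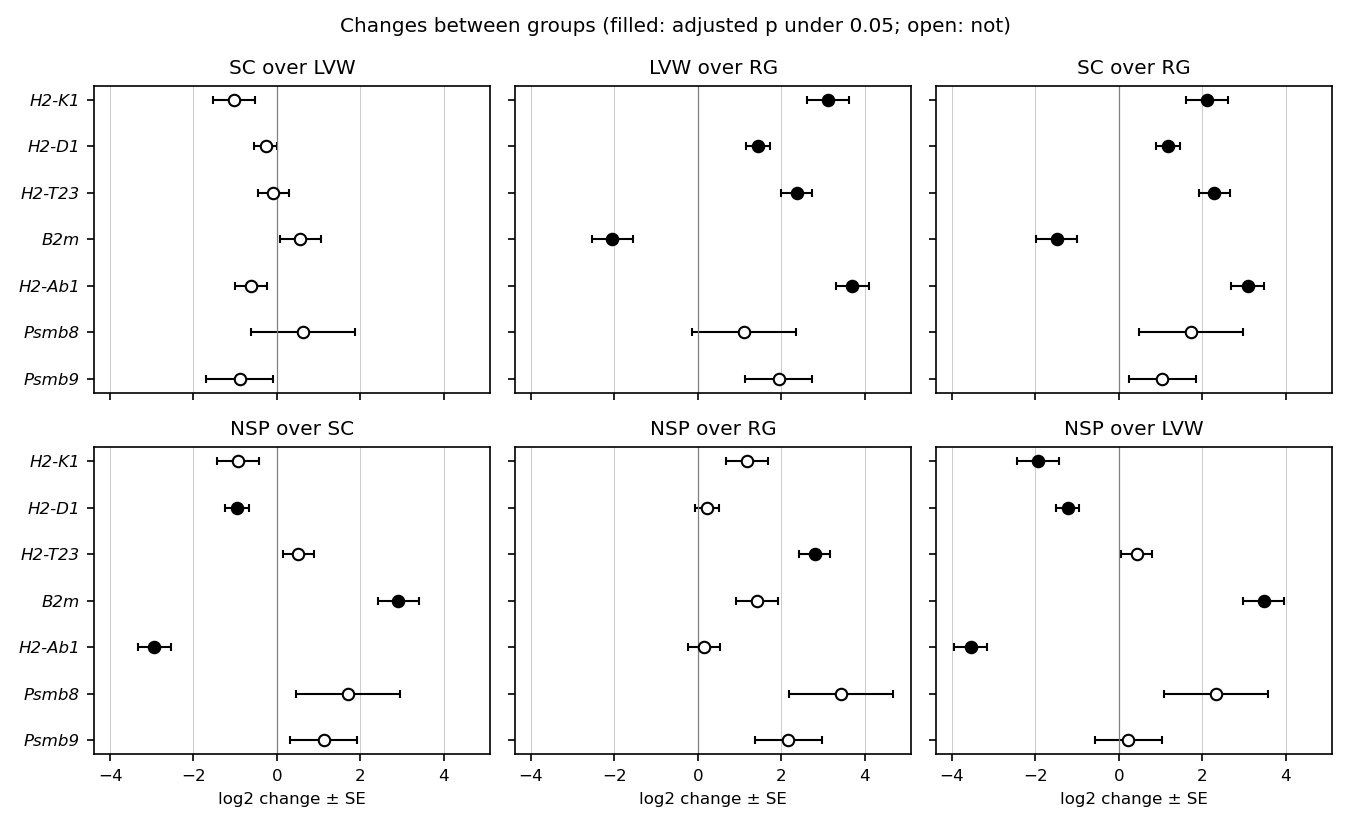
Log2 change with its standard error (horizontal axis) of the 7 tested members in each of 6 comparisons, filled where the adjusted p was under 0.05. B2m lies at -2.05 and -1.49 in LVW and SC over RG, on the other side of 0 from the class I heavy chains, and at 2.91 and 3.47 in NSP over SC and LVW, where H2-Ab1 lies at -2.94 and -3.55.

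Across the 12 arrays the members fell into patterns rather than 1 block. H2-D1 correlated with H2-Ab1 at r = 0.912 and with H2-K1 at 0.830, and H2-K1 with H2-Ab1 at 0.844. B2m correlated with these 3 at -0.781, -0.684 and -0.842 in the order H2-D1, H2-K1, H2-Ab1, and with H2-T23 at -0.02. Psmb8 and Psmb9 correlated with each other at 0.640 and with H2-Ab1 at -0.10 and 0.22. The arrays share their groups, and these values are descriptions. Of 9519 other tested genes, the 5 whose levels followed H2-Ab1 most closely over 12 arrays were Fam229b (r = 0.986), Hhatl (0.981), Plin4 (0.980), Prr29 (0.979) and Fbxo16 (0.979). For the mean standardised profile of H2-K1, H2-D1, H2-T23, Psmb8 and Psmb9 they were Mxra8 (0.959), Ntsr2 (0.954), Idh3a (0.951), Gja1 (0.950) and Ramp1 (0.946). For B2m they were R3hdm1 (0.971), Asah1 (0.960), Rhobtb3 (0.956), Mrpl50 (0.953) and Immt (0.952).

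Other genes of the class I route moved in part with the members. Of 20 listed genes on the array 11 were tested. In LVW against RG, 3 were higher and 1 lower, beside 36.5% of all genes called (16.7% higher and 19.7% lower). In SC against RG, 5 were higher and 1 lower, beside 31.8% of all genes (14.8% higher and 17% lower). The list median was 0.49 in LVW and 0.50 in SC (0.42 and 0.22 with undetected genes at their bounds), beside -0.19 and -0.14 for all genes (-0.09 and -0.02). Tap2, the other subunit of the peptide transporter, was detected on all 12 arrays. Its log2 levels were 8.15, 7.50 and 9.95 in NSP, 10.69, 10.86 and 10.42 in SC, 11.21, 11.03 and 9.82 in LVW and 7.72, 7.19 and 7.86 in RG. Tap2 was higher than in RG by 3.06 ± 0.57 in SC (adjusted p = 0.00159) and by 3.09 ± 0.57 in LVW (adjusted p = 0.00134). In NSP against SC it fell by 2.12 ± 0.57 (adjusted p = 0.0157), a call lost under median scaling and without SC replicate 2 or NSP replicate 1 or 2 (highest adjusted p = 0.122).

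Nlrc5, the transactivator of class I genes, had log2 levels of 5.11, 5.02 and 5.02 in NSP, 6.78, 6.71 and 6.45 in SC, 5.66, 6.25 and 6.48 in LVW and 4.94, 4.82 and 4.86 in RG. It was detected on 0 NSP, 3 SC, 2 LVW and 0 RG arrays. Against RG it was at least 2.08-fold higher in SC (adjusted p = 0.000462) and at least 1.45-fold higher in LVW (adjusted p = 0.0042), the last not called under median scaling (0.0855). Cd1d1, a class I-like molecule that pairs with B2m and presents lipids, had another pattern. It had 9.91, 10.20 and 8.76 in NSP, 4.67, 4.91 and 6.06 in SC, 4.67, 5.43 and 4.69 in LVW and 8.23, 8.66 and 8.86 in RG. Both dividing groups lay above all ependymal arrays. SC detected Cd1d1 on 1 array and LVW on 0. Cd1d1 was higher in NSP than in SC by 4.41 ± 0.47 (adjusted p = 2.74e-05; 2.68 to 6.68 over the alternatives) and at least 6.57-fold lower in LVW than in RG (adjusted p = 9.15e-05). In NSP against SC the class I list had a median of 0.86 beside 0.08 for all genes. Of its 11 tested genes 5 were higher and 3 lower, beside 30.2% of all genes called (15.5% higher and 14.7% lower). Among the higher were H2-T9 (1.95 ± 0.30, adjusted p = 0.000499) and H2-T22 (1.88 ± 0.32, adjusted p = 0.000958), 2 further non-classical heavy chains.

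Few other genes of the class II route were called. Of 17 listed genes 10 were tested, and in SC against LVW, SC against RG and NSP against SC 0 were called with limma. Of all genes, 8.04%, 31.8% and 30.2% were called in these comparisons. In LVW against RG 2 were higher, the lysosomal proteases Lgmn (2.20 ± 0.47, adjusted p = 0.00327) and Ctsb (0.93 ± 0.25, adjusted p = 0.0138). Neither was called under median scaling, and the mean over the Ctsb probes had the opposite sign (-0.26). In NSP against LVW, Lgmn fell by 1.91 ± 0.47 (adjusted p = 0.00831), not called under median scaling (0.0628). In NSP against RG, Ctsb was higher by 0.79 ± 0.25 (adjusted p = 0.0477), a call lost under 12 of 18 alternatives. Ciita, the master regulator of class II genes, and H2-Ea, a class II gene without product in C57Bl/6 mice, were on the array and detected on 0 of 12 arrays. Ctss, the protease that trims the invariant chain, was detected on 1 SC and 1 LVW array. These 3 were named after their values were seen. A further list had 3 tested genes, the inducible proteasome subunit Psmb10 and the proteasome activators Psme1 and Psme3. Of these, 0 were higher in any comparison, and 1 in LVW, 2 in SC and 1 in NSP were lower than in RG. Psmb10 was called in no comparison. The activator gene Psme3 was lower than in RG in SC (-2.07 ± 0.41, adjusted p = 0.00238), under every alternative, and in LVW (-1.19 ± 0.41, adjusted p = 0.0415), a call lost under 9 of 18 alternatives. The activator gene Psme1 was lower than in RG in NSP (-1.75 ± 0.40, adjusted p = 0.00915), though not under median scaling (0.073), and in SC (-1.30 ± 0.40, adjusted p = 0.0267), a call lost under 5 of 18. The standard core proteasome had 13 tested genes, of which 4 in LVW and 5 in SC were lower than in RG and 0 higher. Called against RG in either direction were 36.5% of all genes in LVW, 31.8% in SC and 20.3% in NSP. Those called lower were 19.7%, 17% and 11.1%.

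Markers of cells that carry class II in the nervous system were read beside H2-Ab1. Of 22 microglia and macrophage markers, 0 to 2 were detected on an NSP array, 4 to 6 on an SC array, 2 or 3 on an LVW array and 0 to 2 on an RG array. Ptprc (the CD45 gene), Aif1, Itgam, Cx3cr1, Tyrobp, P2ry12 and Lyz2 were among the 12 detected on no array. The summed signal of the list was 256 to 337 in NSP, 2998 to 4367 in SC, 3355 to 5938 in LVW and 243 to 444 in RG. Most of the ependymal signal was Laptm5, a lysosomal membrane gene of blood cells. Its log2 levels were 5.46, 6.88 and 4.68 in NSP, 11.43, 11.83 and 11.28 in SC, 11.71, 12.46 and 11.54 in LVW and 7.25, 4.78 and 7.68 in RG. It was detected on 1 NSP array, all 6 ependymal arrays and 2 RG arrays. As for H2-Ab1, all 6 ependymal arrays lay above the other 6. Laptm5 was higher than in RG by 4.95 ± 0.72 in SC (adjusted p = 0.000282) and by 5.34 ± 0.72 in LVW (adjusted p = 0.00014). In NSP it fell by 5.84 ± 0.72 against SC (adjusted p = 9.7e-05) and fell by 6.23 ± 0.72 against LVW (adjusted p = 4.8e-05), and these 4 calls held under every alternative. Without Laptm5 the other 21 summed to 233 to 246 in NSP, 528 to 733 in SC, 293 to 391 in LVW and 231 to 255 in RG. The complement gene C1qb, which microglia express, was detected on 0 NSP, 3 SC, 1 LVW and 0 RG arrays. It was at least 2.57-fold higher in SC than in RG (adjusted p = 0.00612) and at least 2.45-fold lower in NSP than in SC (adjusted p = 0.00547). Both C1qb calls held under every alternative. C1qa was detected on 2 SC arrays, Adgre1 on 2 SC and 1 LVW, and Trem2 and Fcgr3 on 1 SC each. C1qc and Fcer1g were detected on 1 LVW array each, Siglech on 1 NSP, and Tmem119 on 1 NSP, 2 SC and 1 RG. Of 16 markers of lymphocytes and dendritic cells, 1 to 3 were detected on an NSP array, 2 or 3 on an SC array, 2 on each LVW array and 3 or 4 on an RG array. Their summed signal was 426 to 547 in NSP, 626 to 866 in SC, 534 to 1359 in LVW and 808 to 873 in RG. Cd79a, Cd79b, Cd3e, Itgax and Flt3 were among the 11 detected on no array. Cd83, a marker of mature dendritic cells, was detected on 0 NSP, 3 SC, 2 LVW and 1 RG arrays. It was at least 5.33-fold lower in NSP than in SC (adjusted p = 0.0363) and at least 5.13-fold lower in NSP than in LVW (adjusted p = 0.0359), calls lost under 12 and 9 of 18 alternatives. Cd40, a receptor of antigen-presenting cells, was at least 3.77-fold lower in SC than in RG (adjusted p = 6.8e-06) and at least 4.01-fold lower in LVW (adjusted p = 7e-06). Coro1a, an actin-binding gene of blood cells, was also lower than in RG in SC (adjusted p = 0.00673) and LVW (adjusted p = 0.0243), the last lost under 8 of 18 alternatives. In NSP, too, Cd40 was lower than in RG (-2.72 ± 0.27, adjusted p = 3.1e-05). So was Coro1a (-2.71 ± 0.67, adjusted p = 0.0138), a call lost under 4 of 18 alternatives. The part of such cells in the H2-Ab1 levels was not tested.

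**Figure D4:**
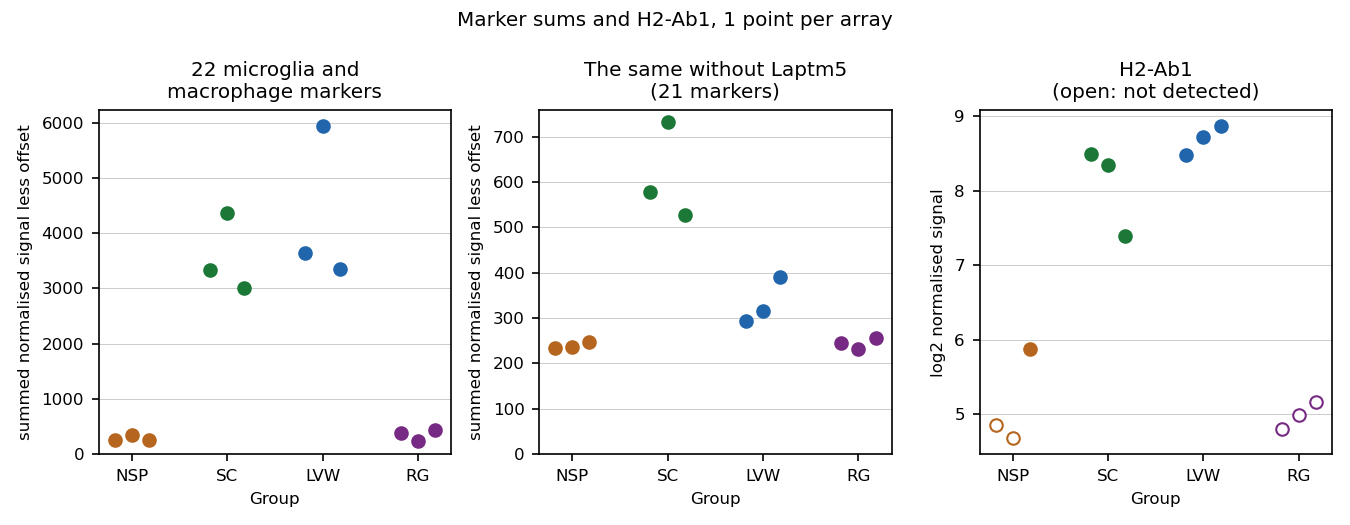
Summed normalised signal (less the offset) of 22 microglia and macrophage markers (left) and of 21 without Laptm5 (middle), and log2 normalised signal of H2-Ab1 (right, open where not detected), with groups on the horizontal axis and 1 point per array. With Laptm5 the sum is at 2998 to 4367 on SC and 3355 to 5938 on LVW arrays, and without it at 528 to 733 and 293 to 391, while H2-Ab1 is at 7.39 to 8.49 and 8.48 to 8.87.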

How the data were processed

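Mouse gene expression was read on 12 Illumina bead arrays, 3 per group. Per the labels' protocols, total RNA was amplified in 2 rounds and biotin labelled. The submitters' processing notes name BeadStudio and lumi, with no version. An intensity (some below 0) and a detection p-value were deposited for every probe and array, per the file headers. The authors' deposited processed table is on a log2 scale with the same sorted values in every column; the scale is inferred from its values, and its background step is unknown.

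Raw intensities were background corrected and quantile normalised with limma 3.58.1 in R 4.3.3 (neqc settings, offset of 16, controls inferred from detection p-values). The kept probe with the highest mean stood for a gene. A linear model of 4 groups (lmFit, eBayes, two-sided) was fitted to 9526 genes, with Benjamini-Hochberg adjustment over all of them, and genes under 0.05 were called. The arrays share 1 spread per gene, although replicate differences had SDs of 1.23 to 1.44 in LVW and 0.61 to 0.77 in RG, so errors of LVW comparisons may be too small. The number of arrays limits the precision. The method was tested on simulated data. All members are named. For the other lists the rule allowed up to 4 called genes with the largest change per comparison. Only some of these are named here, not always those with the largest change. Some further genes are marked as named after their values were seen. The members and lists were chosen with earlier results of these data known. The labels do not say that a replicate number links samples, and same-numbered arrays correlated at -0.23 to 0.32 in their deviations, over 0.1 in 3 of 18 pairs. Alternatives were other background corrections, scalings, filters, probe rules, thresholds, array weights, a replicate block, smaller fits and leaving out each array.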

Additional observations from a re-analysis of the deposited data

How the results depend on the processing

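Of the 18 called member changes, 11 kept direction and call under all alternatives run, and 7 lost the call under at least 1 with no change of direction. Of the 24 uncalled ones, 10 were called under at least 1. With the replicate block, 0, 5, 4, 3, 1 and 4 members were called in SC over LVW, LVW over RG, SC over RG, NSP over SC, NSP over RG and NSP over LVW, against 0, 5, 5, 3, 1 and 4 without it, and B2m in SC over RG was the call lost. In NSP over RG, where 1 member was called, 2 were called with normexp without controls, with the authors' deposited values and with NSP replicate 3 left out before normalisation (an alternative chosen after seeing the data), 4 in a fit to the 6 arrays compared and 5 with array weights. Leaving out 1 array gave 1 to 2 there and 0 to 1 in SC over LVW. The cause of these shifts was not tested. Among uncalled changes the sign turned for H2-T23 in SC over LVW with array weights (0.026) and without LVW replicate 1 (-0.41 to 0.32 with 1 array left out), for Psmb8 in SC over LVW without LVW replicate 1 or SC replicate 3 (-0.34 to 2.15 with 1 array left out) and in LVW over RG without LVW replicate 3 (-0.42 to 2.07), and for H2-D1 in NSP over RG with median scaling (-0.078). It turned for H2-Ab1 in NSP over RG without background correction (-0.55), with array weights (-0.21), without NSP replicate 3 (-0.22 to 0.38 with 1 array left out) and with that array out before normalisation (-0.19), and for Psmb9 in NSP over LVW with the authors' values (-0.058) and without LVW replicate 1 or NSP replicate 2 (-0.95 to 0.95 with 1 array left out). The called Ctsb change in LVW over RG turned to -0.26 with the mean over probes.

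Over all genes, 766 were called in SC over LVW, against 292 in the fit to 6 arrays, 484 with median scaling and 503 without SC replicate 3, the lowest of 503 to 1067 with 1 array left out. In SC over RG 3033 were called and 4969 with array weights, in NSP over RG 1933 and 4123 (1276 without NSP replicate 1 and 2943 without NSP replicate 3), and in NSP over LVW 3210 and 2001 in the fit to 6 arrays. Median scaling moved the median of all genes by -0.23 in SC over LVW, -0.38 in LVW over RG, -0.67 in SC over RG, 0.41 in NSP over SC, -0.21 in NSP over RG and 0.15 in NSP over LVW. As a share of the called genes, not of all genes, higher calls were then 24.8%, 35.7%, 24.8% and 67.1% in the first 4. In the main processing these shares were 38.4%, 45.8%, 46.6% and 51.3%. Slide as a block was not run, since the headers used here name no slide. Members under the background on all arrays of a group have only a bound there, and bounds were computed for the main processing only.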

Other observations

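Interferon response genes were read from a list of 36 on the array, of which 26 were tested. Against RG 11 were higher and 2 lower in LVW, and 6 were higher and 3 lower in SC, with medians of 0.73 and 0.47 (0.73 and 0.28 with undetected genes at their bounds), beside -0.19 and -0.14 for all genes. Of all genes, 36.5% were called in LVW against RG (16.7% higher and 19.7% lower). In SC against RG 31.8% were called (14.8% higher and 17% lower). Igtp, a GTPase induced by interferon gamma, had log2 levels of 7.73, 6.79 and 7.75 in NSP, 9.42, 8.55 and 8.48 in SC, 9.73, 9.91 and 8.82 in LVW and 4.91, 4.70 and 5.69 in RG. The 3 RG arrays were lowest and no NSP array reached an ependymal one. RG detected Igtp on 1 of 3 arrays, and the other 2 have no level above background. Igtp was higher than in RG by 4.39 ± 0.44 in LVW (adjusted p = 1.32e-05; 2.59 to 6.73 over the alternatives) and by 3.72 ± 0.44 in SC (adjusted p = 5.42e-05; 2.01 to 6.04). The antiviral gene Ifit3 was detected on all 3 LVW arrays and on no other. It was at least 3.89-fold lower in SC than in LVW (adjusted p = 7.43e-05). In SC against LVW 1 of the 26 was higher and 3 lower, beside 8.04% of all genes called. Besides Ifit3, the lower ones were Ifi27 (-3.08 ± 0.50, adjusted p = 0.00301) and Oasl2 (-2.35 ± 0.31, adjusted p = 0.00074). The higher one was Ifitm1 (1.47 ± 0.37, adjusted p = 0.0344), a call lost under 11 of 18 alternatives.

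In NSP against SC 2 of 26 tested interferon genes were higher and 6 lower, beside 30.2% of all genes (15.5% higher and 14.7% lower). In NSP against LVW 2 were higher and 10 lower, beside 33.7% of all genes (17.3% higher and 16.4% lower). Ifitm3, a membrane protein that limits virus entry, had 11.94, 11.16 and 11.86 in NSP, 13.93, 13.80 and 13.90 in SC, 12.89, 13.20 and 13.03 in LVW and 11.19, 10.53 and 11.23 in RG. In NSP against SC it fell by 2.22 ± 0.31 (adjusted p = 0.000228). The interferon gamma receptor gene Ifngr1, named after its values were seen, averaged 6.27 ± 0.08 in NSP, 7.69 ± 0.38 in SC, 7.43 ± 0.22 in LVW and 6.28 ± 0.09 in RG (log2, SD, n = 3). In NSP against SC Ifngr1 fell by 1.42 ± 0.28 (adjusted p = 0.00241), and all 6 ependymal arrays lay above the other 6. Ifngr2, also named after its values were seen, ran the other way. It was lower than in RG in SC (-1.93 ± 0.43, adjusted p = 0.00482) and in LVW (-1.33 ± 0.43, adjusted p = 0.0303). In NSP against SC Ifngr2 changed by 1.01 ± 0.43 (adjusted p = 0.0978), which was not called.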
